A study of Mus musculus with 12 samples.

Results

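The calpain system of thymocytes from organ culture was read as 5 of the 8251 genes named on the arrays, through 8 of the 12422 probe sets. These were every probe set whose platform symbol was Capn1, Capn2, Capn3, Capns1 (formerly Capn4) or Cast, and 7 of the 8 were bright enough to be tested. Capn3 was chosen with its measured values known. It was treated as chosen by its difference between HY_high and OT1 arrays, so its values are given here as a description and without a p-value. The other 4 genes joined by family membership, and their tests are given.

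Thymocytes were taken on day 6 from reaggregate thymic organ culture (RTOC), in which thymocytes and thymic stroma are mixed and cultured together. In HY_high, 4 arrays, thymocytes with the transgenic HY receptor were cultured with the Smcy peptide at 1e-05 M. HY_low, again 4 arrays, had the same receptor with the peptide at 1e-07 M. The 4 OT1 arrays came from thymocytes with the transgenic OT1 receptor, for which the labels name no peptide. HY and OT1 are class I restricted receptors, for a male peptide and an ovalbumin peptide. All groups shared the culture method and the day. Strain, the promoters of the transgenes, animal age, pooling, stromal source and any cell sort are not stated in the labels. The labels do not call the replicates separate cultures, so the errors cover only the spread between arrays. Receptor and peptide changed together between either HY group and OT1, so their effects cannot be told apart. Values are the deposited intensities on a linear scale (median 3.71, lowest value 1), and log2 differences were taken from 1 limma fit over all 12 arrays. That fit does not pair arrays by title number. Arrays of the same number deviated together, so a fit with the number as a replicate block was run too. Its standard errors were smaller for every tested member probe set.

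Calpains are calcium-activated cysteine proteases of the cytoplasm that cut their substrates at a few sites and so alter rather than destroy them. The ubiquitous calpains are dimers of a large catalytic subunit, encoded by Capn1 or Capn2, and a common small subunit encoded by Capns1, and they are held in check by the inhibitor calpastatin, the product of Cast. Capn3 encodes a large subunit best known from skeletal muscle, where the protein binds titin and where loss of the gene causes a limb-girdle muscular dystrophy in humans. In lymphocytes calpains are known for cutting cytoskeletal and adhesion proteins such as talin during migration and adhesion.

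Capn3 lies on mouse chromosome 2, and RefSeq (GRCm38.p6) annotates 2 starts for it, 13316 bases apart. The table of upstream windows holds 2 starts for Capn1, 1 for Capn2, 1 for Capns1 and 4 for Cast. Both Capn3 windows are shown because the probe sets of the gene differed in brightness, and the arrays do not tell from which start the RNA came. Each is the 250 bases before a start on the plus strand, at chr2:120463343-120463592 for the upstream start and chr2:120476659-120476908 for the downstream start. Capitals mark matches, on either strand, to 5 motifs that were picked with the sequences in view.
Capn3 upstream start: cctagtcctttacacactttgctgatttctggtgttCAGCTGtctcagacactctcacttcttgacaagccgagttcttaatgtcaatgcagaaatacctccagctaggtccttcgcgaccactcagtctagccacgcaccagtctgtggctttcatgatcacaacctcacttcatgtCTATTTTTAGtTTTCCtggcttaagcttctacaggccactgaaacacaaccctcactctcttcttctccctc
Capn3 downstream start: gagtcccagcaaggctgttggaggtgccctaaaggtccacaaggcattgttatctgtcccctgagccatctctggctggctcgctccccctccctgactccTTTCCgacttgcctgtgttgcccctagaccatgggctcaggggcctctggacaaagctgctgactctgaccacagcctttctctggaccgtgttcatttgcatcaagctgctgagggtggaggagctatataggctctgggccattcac
The motifs were CAGCTG (a form of the E-box bound by basic helix-loop-helix factors), the MEF2 motif, TGANTCA (AP-1), GGAAA (the core bound by NFAT factors) and TATAAA. In the upstream window CAGCTG lay 214 to 209 bases before the start, the MEF2 motif 72 to 63 bases before it and GGAAA, on the minus strand, 61 to 57 bases before it, without overlap. The downstream window held a single match, GGAAA on the minus strand, 149 to 145 bases before the start. Of 32851 windows of this length in the table, 13.0% held CAGCTG, 0.508% the MEF2 motif, 6.75% TGANTCA, 55.6% GGAAA and 12.4% TATAAA. A match describes letters and is not evidence of binding.

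The brightest Capn3 probe set, 103272_at, was highest in HY_high, intermediate in HY_low and lowest in OT1. On arrays 1 to 4 its intensity was 83.3, 51.5, 48.9 and 28.5 in HY_high. In HY_low it was 27.7, 16.7, 34.4 and 11.8. The OT1 arrays had 3.26, 8.81, 12.5 and 5.83. Every HY_high array therefore lay above every OT1 array, whereas the neighbouring groups overlapped by 1 array at each step, since HY_high array 4 lay below HY_low array 3 and HY_low array 4 lay below OT1 array 3. Geometric means were 49.4 in HY_high, 20.8 in HY_low and 6.77 in OT1, and the standard deviations of the log2 values were 0.63 in HY_high, 0.70 in HY_low and 0.84 in OT1 (n = 4 arrays each). The position of this probe set within each array, which no scaling changes, lay between percentiles 85.8 and 94.7 in HY_high, between 72.2 and 87.9 in HY_low and between 49.5 and 73.6 in OT1. The probe set thus lay near the middle of the array or somewhat above it in OT1 and among the brighter ones in HY_high.

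**Figure D1:**
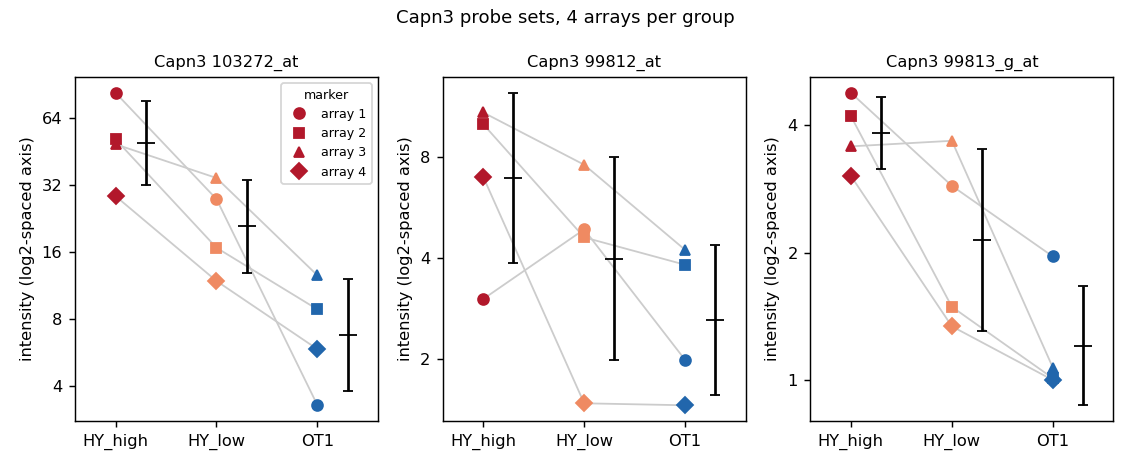
Intensity (log2-spaced axis, each panel on its own range) of the 3 Capn3 probe sets in HY_high, HY_low and OT1. Points are single arrays, grey lines join arrays of the same number, and black bars give the geometric mean ± SD of the log2 values (n = 4); on 103272_at the geometric means are 49.4, 20.8 and 6.77.

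The log2 difference of 103272_at was 2.87 ± 0.51 (SE) between HY_high and OT1, a 7.31-fold higher level. It was 1.62 ± 0.51 between HY_low and OT1 (3.08-fold) and 1.25 ± 0.51 between HY_high and HY_low (2.37-fold). With the replicate block the standard error was 0.38 in each comparison. These 3 differences share arrays and do not add independent evidence for each other. Within the replicate numbers 1 to 4 the log2 difference between HY_high and OT1 was 4.68, 2.55, 1.96 and 2.29. HY_low exceeded OT1 by 3.08, 0.92, 1.46 and 1.02, and HY_high exceeded HY_low by 1.59, 1.62, 0.50 and 1.27. The sign was the same in 4 of 4 numbers in each comparison, and number 1, where OT1 was dimmest, had the widest gap to OT1. In the order of all 8695 tested probe sets from most raised to most lowered, 103272_at stood at place 14 for HY_high against OT1. It stood at place 40 for HY_low against OT1 and place 121 for HY_high against HY_low. Capn3 was treated as chosen by the first of these contrasts and the others share its arrays, so the places are no support.

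The other Capn3 probe sets, which the annotation ties to a sequence record they share, were dimmer. For 99813_g_at the intensities were 4.78, 4.21, 3.57 and 3.04 on HY_high arrays 1 to 4. HY_low had 2.88, 1.49, 3.68 and 1.34, and OT1 had 1.96, 1.01, 1.07 and 1. HY_high and OT1 did not overlap on this probe set, although all 12 values lay below 8, near the bottom of the scale. Its log2 difference was 1.67 ± 0.45 (SE) between HY_high and OT1, 0.83 ± 0.45 between HY_low and OT1 and 0.84 ± 0.45 between HY_high and HY_low.

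On 99812_at the HY_high arrays had 3.01, 10.0, 10.9 and 6.98. The values were 4.86, 4.60, 7.58 and 1.47 in HY_low and 1.98, 3.81, 4.22 and 1.45 in OT1. All groups overlapped here, and HY_high array 1, the brightest array on 103272_at, was the dimmest of its group on 99812_at. Log2 differences were 1.41 ± 0.59 (SE) between HY_high and OT1, 0.61 ± 0.59 between HY_low and OT1 and 0.80 ± 0.59 between HY_high and HY_low. Across the 12 arrays the log2 values of 103272_at had a Pearson correlation of 0.81 with those of 99813_g_at and 0.69 with those of 99812_at, as a description of arrays that share the group differences. With intensities under 8 raised to 8, the log2 difference of 99812_at was 0.19 between HY_high and OT1 and 0 between HY_low and OT1, and 99813_g_at could not be fitted. No size of change is therefore read from these dim probe sets.

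With limma, 1 of the 7 tested probe sets of the calpain system, 103272_at, passed an adjusted p of 0.05 in HY_high against OT1, where 0.173% of all tested probe sets passed. The groups did not overlap for 2 of the 7, both of Capn3, where the share over all tested probe sets was 2.53%. Since Capn3 was treated as chosen by this contrast, nothing is read from either count. Both remaining comparisons had 0 of 7 past the threshold, against 0.023% of all probe sets in HY_low against OT1 and 0.023% in HY_high against HY_low. Of the 4 tested probe sets of Capn1, Capn2, Capns1 and Cast, 0 had an unadjusted p under 0.05 in any comparison, where 4.08% of all tested probe sets did for HY_high against OT1, 2.65% for HY_low against OT1 and 2.96% for HY_high against HY_low. All 7 had overlapping groups in HY_low against OT1 and in HY_high against HY_low, where the share without overlap over all tested probe sets was 1.63% for HY_low against OT1 and 2.02% for HY_high against HY_low. The median log2 difference of the 4 probe sets other than those of Capn3 was 0.45 for HY_high against OT1, 0.14 for HY_low against OT1 and 0.20 for HY_high against HY_low, beside 0.02, 0.01 and 0.01 over all tested probe sets in the same comparisons.

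The log2 difference of 103272_at between HY_high and OT1 stayed between 2.43 and 3.17 in the alternative fits. Capn3 was treated as chosen by this comparison, so its call there is no evidence. The call was not kept by all of these fits. It was lost without HY_high array 1, 2 or 3, where the log2 difference of 103272_at was 2.62, 2.85 and 2.87, and without OT1 array 1, 2 or 4, where it was 2.52, 2.996 and 2.80. It was also lost without the filter on dim probe sets and with intensities under 8 raised to 8, which gave a log2 difference of 2.43.

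**Figure D2:**
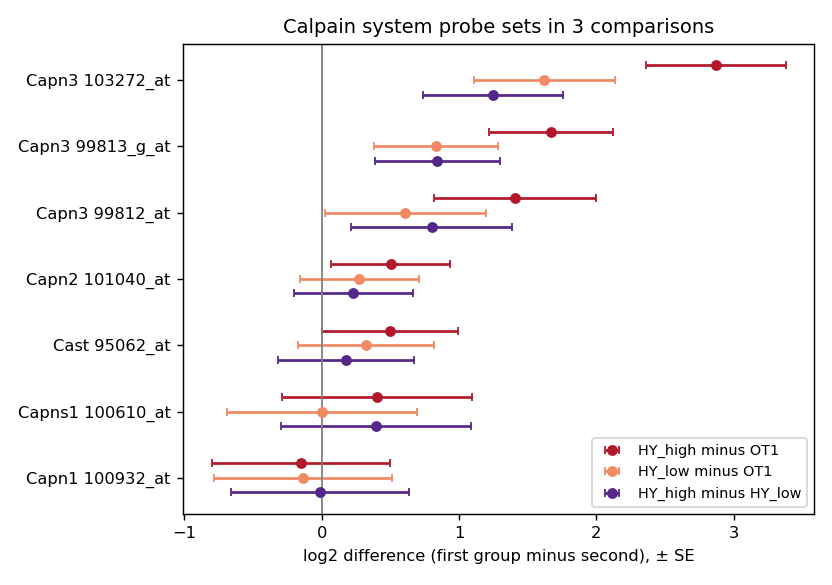
Log2 differences (points) and their standard errors (bars) of the 7 tested calpain system probe sets, each for HY_high minus OT1, HY_low minus OT1 and HY_high minus HY_low. The 3 Capn3 probe sets lie at the right, up to 2.87, and the probe sets of Capn1, Capn2, Capns1 and Cast lie between -0.15 and 0.50.

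Of the large subunits of the ubiquitous calpains, Capn2 was measurable and Capn1 was dim. Capn2 probe set 101040_at had intensities of 17.0, 15.5, 29.3 and 18.3 on HY_high arrays 1 to 4. In HY_low they were 14.5, 14.6, 19.95 and 17.7, and in OT1 they were 15.9, 6.64, 20.01 and 16.6. The groups overlapped, and OT1 array 2 was the lowest of the 12 arrays. The log2 difference of Capn2 was 0.50 ± 0.43 (SE) between HY_high and OT1, with a 95% interval from -0.41 to 1.42 (limma adjusted p = 1). Between HY_low and OT1 it was 0.27 (interval -0.64 to 1.19, adjusted p = 1), and between HY_high and HY_low 0.23 (interval -0.68 to 1.14, adjusted p = 1). With the replicate block the standard error of Capn2 between HY_high and OT1 was 0.29 and the limma adjusted p 0.550. An up to 2.67-fold higher level of Capn2 in HY_high than in OT1 lies within the interval of the fit without the block. The further Capn2 probe set, 162112_i_at, was not tested. It stood at the lowest value on 3 of 4 HY_high, 4 of 4 HY_low and 3 of 4 OT1 arrays, and its highest value was 1.76, so it gave no usable level.

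Capn1 probe set 100932_at ran from 1.22 to 3.21 in HY_high, from 1.36 to 8.47 in HY_low and from 1.43 to 8.24 in OT1. Only HY_low array 4 and OT1 array 3 exceeded 8. The geometric means were 2.37 in HY_high, 2.40 in HY_low and 2.64 in OT1, and no difference was detectable at this brightness. Log2 differences were -0.15 ± 0.65 (SE) between HY_high and OT1, -0.14 between HY_low and OT1 and -0.02 between HY_high and HY_low (limma adjusted p = 1 for each).

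Capns1, the small subunit without which the ubiquitous calpains do not work, was measured brightly in all groups. Its intensities on arrays 1 to 4 were 614, 143, 182 and 117 in HY_high. HY_low had 556, 44.1, 172 and 148, and OT1 had 339, 71.9, 179 and 141. Arrays numbered 1 were the brightest of every group, and the spread between numbers was wider than any difference between groups. The log2 difference was 0.40 ± 0.69 (SE) between HY_high and OT1 (95% interval -1.06 to 1.86), 0.0048 between HY_low and OT1 and 0.40 between HY_high and HY_low (limma adjusted p = 1 for each). Within numbers, HY_high differed from OT1 by 0.86, 0.995, 0.02 and -0.27. In the fit with the replicate block its standard error was 0.28 and the limma adjusted p 0.629.

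Cast, the inhibitor, had intensities of 16.1, 11.9, 40.5 and 27.98 on HY_high arrays 1 to 4. The values were 11.8, 19.6, 31.5 and 18.6 in HY_low and 9.30, 12.1, 26.0 and 18.9 in OT1. Arrays numbered 3 were the brightest of each group, and the groups overlapped. The log2 difference was 0.50 ± 0.50 (SE) between HY_high and OT1 (95% interval -0.55 to 1.54), 0.32 between HY_low and OT1 and 0.17 between HY_high and HY_low (limma adjusted p = 1 for each). With the replicate block the standard error of Cast between HY_high and OT1 was 0.28 and the limma adjusted p 0.538. Calpastatin RNA was thus not shown to change, and its intervals without the block reach up to 2.91-fold higher in HY_high than in OT1.

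**Figure D3:**
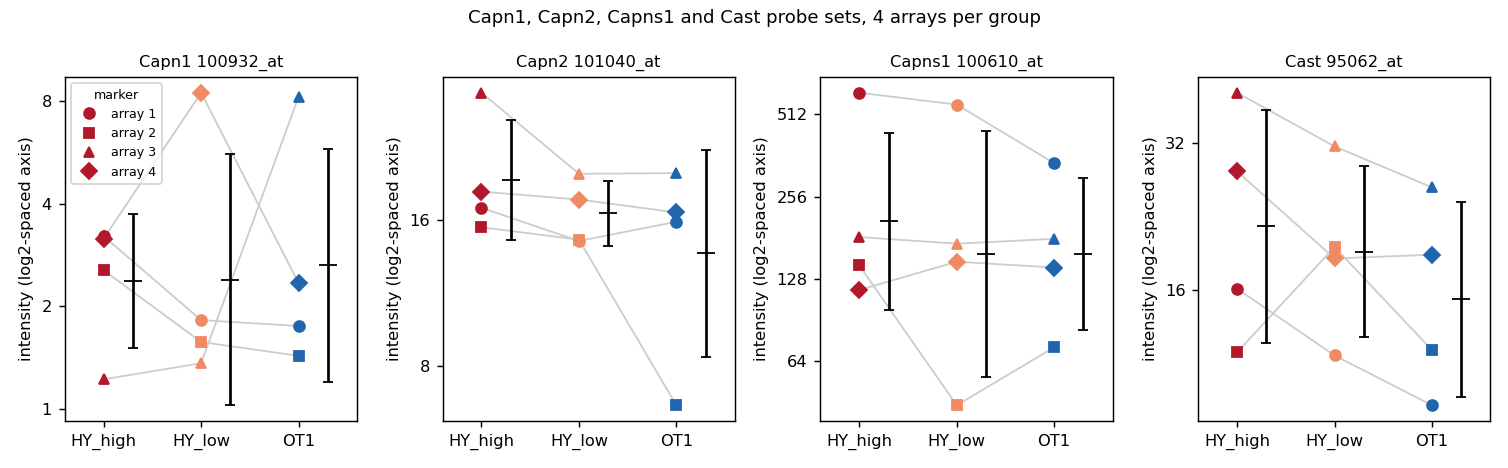
Intensity (log2-spaced axis, each panel on its own range) of the tested Capn1, Capn2, Capns1 and Cast probe sets in HY_high, HY_low and OT1, drawn as single arrays joined by number, with the geometric mean ± SD of the log2 values as black bars (n = 4). Groups overlap in every panel, and the Capns1 arrays numbered 1 stand highest, at 614, 556 and 339.

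Further calpain family genes were on the array for 5 of the 11 listed, Capn5, Capn6, Capn7, Capn9 and Capn10, with 8 probe sets of which 6 were tested. None of the 6 passed limma's adjusted p of 0.05 in any comparison, and 0 had an unadjusted p under 0.05. Over all tested probe sets the unadjusted share was 4.08% for HY_high against OT1, 2.65% for HY_low against OT1 and 2.96% for HY_high against HY_low. At these shares 0 of 6 says nothing particular about the family. Their median log2 differences were 0.26 for HY_high against OT1, -0.06 for HY_low against OT1 and 0.16 for HY_high against HY_low. Capn7, a calpain without the calcium-binding domain of the ubiquitous enzymes, had a geometric mean of 12.4 in HY_high, 10.9 in HY_low and 8.99 in OT1 (log2 difference 0.47 ± 0.70 between HY_high and OT1, adjusted p = 1). Capn5 had geometric means of 3.71 in HY_high and 2.12 in HY_low, with the widest difference of the 6 between these groups (log2 0.81 ± 0.49, adjusted p = 1). Capn10 was read at 5.01 in HY_high and 6.44 in OT1 on its brighter probe set (log2 difference -0.36 ± 0.54, adjusted p = 1), and its dimmer one had 2.10 in HY_high and 1.70 in OT1. The brightest Capn6 probe set ranged over 1.82 to 9.81 in HY_high and 1 to 10.55 in HY_low, and Capn9 had geometric means of 2.57 in HY_low and 3.04 in OT1, both with an adjusted p of 1 in limma. Of the 8 probe sets, the one of Capn7 alone had group means above 8.

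Genes listed as substrates or partners of calpains were represented by 25 of 30 listed genes, with 33 probe sets, 31 of them tested. None passed limma's adjusted p of 0.05 in any comparison, and the number with an unadjusted p under 0.05 was 1 for HY_high against OT1, 0 for HY_low against OT1 and 0 for HY_high against HY_low, beside the 4.08%, 2.65% and 2.96% of all tested probe sets given above. The median log2 difference was 0.15 for HY_high against OT1, 0.05 for HY_low against OT1 and 0.08 for HY_high against HY_low, with 20, 19 and 19 of the 31 above 0, where 51.4%, 51% and 51.3% of all tested probe sets were. Ppp3cb, a catalytic subunit of calcineurin, had the smallest p, with geometric means of 4.22 in HY_high and 1.54 in OT1 (log2 difference 1.45 ± 0.51, adjusted p = 0.782). Both are near the bottom of the scale. Nfkbia, the inhibitor of NF-kappaB, had 31.0 in HY_high and 14.2 in OT1 on one probe set (log2 difference 1.13 ± 0.65) and 37.2 in HY_high and 20.5 in OT1 on another (0.86 ± 0.55), and neither passed (adjusted p = 1). The limma adjusted p with the replicate block was 0.173 for Ppp3cb and, in the same order, 0.116 and 0.197 for Nfkbia. Tln1, which encodes talin, was read on 1 of its probe sets at 3.03 in HY_high and 4.67 in OT1 (log2 difference -0.62 ± 0.50, adjusted p = 1). These values are near the bottom of the scale, and the probe set was named for its p, so no change of talin RNA is read from it.

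Between the peptide doses, Ctnnb1, the adhesion and signalling protein beta-catenin, had geometric means of 152 in HY_high and 53.1 in HY_low, and Msn, the membrane linker moesin, had 109 in HY_high and 54.7 in HY_low. Their log2 differences of 1.52 ± 1.07 and 1.0 ± 0.76 did not pass (adjusted p = 1 for both). With the replicate block the limma adjusted p was 0.0726 for Ctnnb1 and 0.157 for Msn, so neither passed there. The intermediate filament gene Vim was at 3.96 in HY_high and 2.03 in HY_low (0.96 ± 0.58, adjusted p = 1). Ppp3cb was at 4.22 in HY_high and 2.30 in HY_low (0.87 ± 0.51, adjusted p = 1).

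In the comparison of HY_low with OT1, Vim was at 2.03 in HY_low and 4.19 in OT1 (log2 difference -1.04 ± 0.58). Pxn, the adhesion adaptor paxillin, was at 12.7 in HY_low and 8.26 in OT1 (0.62 ± 0.44). The same Tln1 probe set had 2.84 in HY_low and 4.67 in OT1 (-0.72 ± 0.50), and the brighter Nfkbia probe set had 33.9 in HY_low and 20.5 in OT1 (0.73 ± 0.55). All 4 had a limma adjusted p of 1, and their groups overlapped. The Vim and Tln1 values lay near the bottom of the scale.

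The probe sets whose log2 values followed Capn3 103272_at most closely over the 12 arrays were taken from 7715 tested probe sets of other genes with 1 symbol. The highest Pearson correlation, 0.91, was that of Sdhaf1, an assembly factor of succinate dehydrogenase, on a probe set of a type that can read several related transcripts. Mllt3, a chromatin reader of the elongation machinery, had 0.89. Its geometric means were 135 in HY_high, 94.5 in HY_low and 52.9 in OT1. The next were the T cell receptor alpha segment Trav9d-3 (0.86), the membrane peptidase gene Cpd (0.84), Eogt, a glycosyltransferase that modifies extracellular protein domains (0.84), and the gamma segment Trgv1 (0.83). Cpd had geometric means of 12.5, 6.07 and 2.72 in HY_high, HY_low and OT1, a log2 difference of 1.05 between the doses, beside 1.25 for Capn3.

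Trav9d-3 on this probe set had 1914, 2066, 1896 and 1175 on HY_high arrays 1 to 4 and 1149, 2925, 1394 and 756 on HY_low arrays, against 88.5, 134, 420 and 249 on OT1 arrays. Its log2 difference was 3.20 between HY_high and OT1 and 0.33 between HY_high and HY_low. HY_low array 2 was the brightest of the 12 arrays on it, whereas on the brightest Capn3 probe set that array lay below every HY_high array. The HY and OT1 arrays differ in their transgenic T cell receptor, and whether the Trav9d-3 probe set reads a transgene was not tested. These 6 were chosen for their likeness, and the correlations carry no test.

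**Figure D4:**
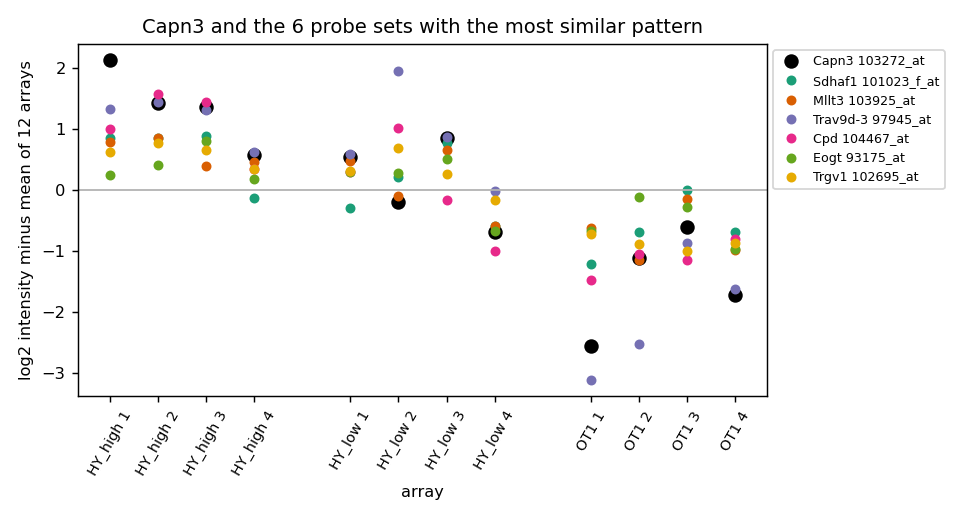
Log2 intensity minus the mean of the 12 arrays (vertical axis) for Capn3 103272_at (large black points) and the 6 probe sets with the highest Pearson correlation with it, by array (horizontal axis; HY_high, HY_low, OT1). The OT1 arrays lie below 0 for all 7 probe sets, but for Sdhaf1 on OT1 array 3, which lies at about 0, and Cpd has a log2 difference of 1.05 between HY_high and HY_low, where Trav9d-3 has 0.33.

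The cells were checked against marker genes. Thymocyte markers were measured for 11 of 12 listed genes, and 9 of the 11 had a geometric mean above 8 in HY_high, 10 in HY_low and 10 in OT1. Their summed intensity ran from 1156 to 2520 in HY_high, from 2855 to 4103 in HY_low and from 2650 to 3372 in OT1, so that HY_high, where Capn3 was highest, lay below both other groups without overlap. Among these genes Cd8b1, the CD8 beta chain, had geometric means of 4.52 in HY_high, 644 in HY_low and 693 in OT1. Without Cd8b1, a choice made after its values were seen, the groups overlapped, with sums of 1155 to 2512 in HY_high, 2373 to 3061 in HY_low and 1815 to 2639 in OT1. The geometric mean in HY_high was below that in HY_low for 10 of the 11 genes and below that in OT1 for 8 of them. Those above OT1 were the CD3 chains Cd3d (98.3 in HY_high, 87.3 in OT1), Cd3e (48.0 in HY_high, 41.5 in OT1) and Cd3g (231 in HY_high, 184 in OT1). The part of this shift in the Capn3 values was not tested. In bulk RNA, fewer cells that hold a transcript and less of it per cell cannot be told apart.

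Genes of skeletal muscle, the tissue in which Capn3 is best known, had low group means. Of 18 listed muscle genes 17 were measured, and 0 had a geometric mean above 8 in any group. Their summed intensity was 41.5 to 57.0 in HY_high, 53.0 to 59.2 in HY_low and 49.6 to 57.45 in OT1. Acta1, skeletal muscle actin, was at or near the lowest value throughout, with a highest intensity of 1.95. Markers of macrophages and dendritic cells (18 of 18 measured) summed to 80.1 to 91.5 in HY_high, 60.6 to 122 in HY_low and 57.9 to 85.6 in OT1. Sums also overlapped for fibroblasts (9 of 10 measured), at 55.4 to 78.9 in HY_high, 52.6 to 99.2 in HY_low and 52.1 to 77.9 in OT1, and thymic epithelium (9 of 10 measured), where they were 27.6 to 39.9 in HY_high, 21.5 to 41.8 in HY_low and 23.6 to 53.3 in OT1. For B cells (8 of 9 measured) the sums were 161 to 537 in HY_high, 86.9 to 639 in HY_low and 95.9 to 1013 in OT1. Ighm was the brightest of these genes on 11 of the 12 arrays, and Blk on HY_high array 3. Of the 8 B cell genes only 3 had a geometric mean above 8 in HY_high, 2 in HY_low and 2 in OT1. NK cells (4 of 7), endothelium (6 of 7) and erythroid cells (2 of 7) summed to at most 18.6, 31.8 and 17.6 on any array. The log2 ratio of 3' to 5' control probe sets of Gapdh is a measure of RNA integrity. It was 3.04 to 5.60 in HY_high, 3.27 to 5.78 in HY_low and 2.95 to 6.26 in OT1, so the groups overlapped. In every group this ratio was highest on array 2 and lowest on array 4. Signal at the 3' end exceeded that at the 5' end on every array, also for actin, whose lowest log2 ratio was 2.02. Overlap of the groups does not show that the RNA was intact, and any effect on the dim probe sets was not tested.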

How the data were processed

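Expression was measured on 12 Affymetrix mouse arrays, 4 per group. The deposited values are intensities on a linear scale, 1 table holding 12488 probe sets. The sources used here do not give how the authors corrected, summarised and scaled these intensities. Array medians differed by at most 1.19-fold, so the intensities were used as deposited. The share of values at the lowest value, 1, ran from 3.00% to 22.5% per array. The number of arrays limits the precision.

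After 66 control probe sets were left out, log2 values were fitted with limma 3.58.1 (R 4.3.3), with a mean per group and a variance trend on intensity (9 residual degrees of freedom). Tested were 8695 probe sets with a mean log2 value above the 30th percentile (intensity 1.76). Two-sided p-values were adjusted over these by the Benjamini-Hochberg method. The fit was also tested on simulated data. Symbols came from the platform annotation, updated by gene ID (10833 probe sets with 1 symbol, 396 with several, 1193 with none). Sequences are from RefSeq.

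Arrays of different groups with the same title number deviated from their group means together (correlations 0.341 to 0.593 in 12 pairs, -0.40 to 0.163 in the 36 others). This pairing rests on the data, since no label states it. A fit with a replicate block, leaving 6 residual degrees of freedom, was therefore run too. Standard errors, intervals and adjusted p are from the fit without the block unless it is named. Other alternatives were quantile normalization, scaling to one median, array weights, no variance trend, no filter, a floor at 8 and leaving out each array.

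The members and gene lists were chosen with earlier results of these data known. Every member probe set was named. Of the family and substrate lists, those past the threshold or among the 4 smallest p per comparison qualified for naming. The 6 probe sets with the highest correlation with Capn3 were named as well. Marker genes were represented by their brightest probe set, and Cd8b1, the CD3 chains, the named muscle genes, Ighm and Blk were singled out after their values were seen.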

Additional observations from a re-analysis of the deposited data

Results flagged for a closer look

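Within groups of 4 arrays, 4 of the 23 groups of member values with any spread held an array far from the others by Dixon's criterion. Chance gives about 1 in 20, a rate that does not apply to values at the bottom of the scale. Capn1 had 8.47 on HY_low array 4, against 1.36 to 1.82 on the other HY_low arrays. Capn3 probe set 99813_g_at had 1.96 on OT1 array 1, against 1 to 1.07 on the other OT1 arrays. The untested Capn2 probe set had 1.02 on HY_high array 2 and 1.76 on OT1 array 4, where the other arrays of each group stood at the lowest value, 1, so that any value above it meets the criterion. All of these values lie near the bottom of the intensity scale, and their causes were not tested.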

How the results depend on the processing

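Of 19 alternatives, 8 left 0 members past the threshold in HY_high against OT1 in place of 1, namely no filter (0, where more probe sets were tested), the floor at 8 (0, where fewer were) and leaving out 1 of 6 arrays (range 0 to 1). With the replicate block the count was again 1, and the pairing changed no other call of a member. No probe set of the family and substrate lists passed with the block either. The count of 1 is Capn3 103272_at, which was treated as chosen by HY_high against OT1, so nothing is read from it. Over all tested probe sets in HY_high against OT1, the block took the calls from 12 higher and 3 lower to 98 higher and 20 lower. In the other comparisons no member passed under any alternative. For Capn3 103272_at the log2 difference between HY_high and OT1 kept its direction, from 2.43 to 3.17. With the floor, 99812_at had no difference between HY_low and OT1, and 99813_g_at could not be fitted.

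Directions of the 4 other genes, none past the threshold, turned in 20 of 228 values, and the cause was not tested. Capn1 had 0.0099 for HY_low minus OT1 with the floor and 0.0425 for HY_high minus HY_low with quantile normalization, where Capns1 had -0.041 for HY_low minus OT1. Leaving out single arrays moved Capn1 from -0.45 to 0.40 for HY_high minus OT1, -0.75 to 0.41 for HY_low minus OT1 and -0.29 to 0.59 for HY_high minus HY_low. Capns1 moved from -0.12 to 0.77, -0.60 to 0.62 and -0.22 to 1.0 in the same order. Capn2 ran from -0.0754 to 0.46 for HY_low minus OT1 and Cast from -0.13 to 0.46 for HY_high minus HY_low. Leaving Cd8b1 out of the thymocyte sum, added after seeing the data, took the groups lying wholly above HY_high to 0, against 2 with it. Capn1 and 2 Capn3 probe sets are too dim to size a change.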
